A study of Homo sapiens with 6 samples.

Results

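The human genes named KCN followed by letters for a subfamily and a number encode the pore-forming and accessory subunits of potassium channels. Here they were taken as every row of the deposited count table with a name of that form, 1 row for each name, with 1 gene of the KCNQ subfamily left out. This gave 94 of the 60835 genes in the table. The samples were libraries of SW620, an established line of human colon cancer cells that was grown from a metastasis in a lymph node. In 3 libraries the cells carried a control vector (shControl, genotype label WT), and in the other 3 a vector for stable knockdown of DNM1 (shDNM1). DNM1 encodes dynamin 1, a GTPase of endocytosis, and the comparison asks which mRNAs differ between libraries labelled with the control and the knockdown vector. The labels give batch_A for all shControl and batch_B for all shDNM1 libraries, so batch and vector cannot be told apart anywhere below. Neither separate cultures nor the number of clones is stated, so the p-values reflect differences between libraries that could be technical only. In such bulk samples, fewer cells of a type and less RNA per cell cannot be told apart.

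Potassium channels let potassium leave or enter the cell along its gradient and so set the membrane voltage. Voltage-gated pores open on depolarisation, and inward rectifiers pass potassium more easily into the cell than out and hold the resting voltage. Two-pore domain channels give a background leak, and most Slo and SK channels open with intracellular calcium or sodium. Silent modifier subunits carry no current alone and join voltage-gated pores, while auxiliary subunits change gating or surface delivery. In colon crypts, potassium exit through such channels keeps the voltage that drives chloride secretion, with the sodium pump and the cotransporter encoded by SLC12A2 supplying the ions.

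The library totals ran from 12844534 to 13537519 counts. DNM1 itself was 127, 127 and 133 CPM (read counts brought to one library size with TMM factors) in the shControl libraries and 126, 97.8 and 126 CPM in the shDNM1 libraries. The shDNM1 libraries lay below the shControl libraries, replicates 1 and 3 only just, and the difference did not pass (log2 fold change -0.15, SE 0.083, adjusted p = 0.189), although it did without shDNM1 replicate 1 (log2 fold change -0.20, adjusted p = 0.0399). Without shDNM1 replicate 2, the lowest library, the log2 fold change was -0.04 (adjusted p = 0.718). The second set is therefore called the libraries labelled shDNM1, and directions below are between the labelled sets, not between measured levels of DNM1. Of 7 intestinal epithelial markers, 6 were high enough to test. KRT8 was at 6620 TPM (a level per gene length, as deposited), whereas CDH17 was at 1.06 TPM and KRT20 had 58 counts over the 6 libraries and was not tested. CDX2, an intestinal transcription factor, rose 2.47-fold (adjusted p = 1.66e-06), the keratin genes KRT8 and KRT18 rose 1.20-fold and 1.23-fold (adjusted p = 0.00408 and 0.00345), and EPCAM fell to 0.886 of its shControl level (adjusted p = 0.0288). EPCAM did not pass when shControl replicate 1, shControl replicate 3 or shDNM1 replicate 3 was left out (adjusted p = 0.0923, 0.126 and 0.068), nor did KRT8 on either log2 TPM scale (adjusted p = 0.0736 and 0.0501). The summed level of the 7 markers was 8837 to 9320 TPM in shControl and 9827 to 10505 TPM in the labelled shDNM1 libraries. Most of it came from KRT8 (6620 TPM) and KRT18 (2116 TPM), so its rise is mainly that of keratins. Of the 6 tested, 3 rose, 1 fell and 2 did not pass. The last were CDH17 (log2 fold change 0.26, adjusted p = 0.64) and VIL1 (log2 fold change -0.09, adjusted p = 0.325). The summed level of 5 neuronal markers was 102 to 107 TPM in shControl and 78.2 to 87.0 TPM in the labelled shDNM1 libraries, nearly all of it from SYT1 and GAD1, with 1 count of SNAP25 in all. The sum of 6 fibroblast markers was 28.6 to 36.1 and 36.2 to 54.3 TPM, mostly from LUM, with COL3A1 at 0 counts. That of 5 leukocyte markers was 8.18 to 9.85 and 3.49 to 4.77 TPM, mostly from LYZ, with CD3E at 0 and PTPRC at 2 counts. None of these 4 sums overlapped between the sets, and their part in the results below was not tested.

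A mean of at least 1 TPM was reached by 29 of the 94 potassium channel genes. Of the 94 genes, 24 had 0 counts in all 6 libraries, among them KCNA3, KCNA5, KCNJ3, KCNK2 and KCNK3. A count of 0 allows up to 3 counts, or 0.234 CPM in the smallest library. A further 37 had counts but did not reach the low-count filter; KCNH6, KCNIP4 and KCNK12 had the most of these, and the highest total was 49 counts. The other 33 genes were tested: 9 of 29 voltage-gated pores, 4 of 10 modifiers, 7 of 16 auxiliary subunits, 3 of 8 Slo and SK pores, 6 of 16 inward rectifiers and 4 of 15 two-pore channels. The summed level of the 94 genes was 266 to 278 TPM in shControl and 253 to 276 TPM in the labelled shDNM1 libraries, so these ranges overlapped.

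Few genes made up most of that RNA. The first 3 in order of mean deposited TPM over the 6 libraries were KCNAB2, a cytoplasmic beta subunit of voltage-gated channels (38.7 TPM), KCNE3, a single-span subunit of intestinal crypt cells (38.2 TPM), and KCNS3, a silent modifier (38.1 TPM). Together they held 42.7% of the summed level and the first 10 genes held 81.3%. Next came KCNH2, the HERG delayed rectifier pore (26.0 TPM), and the two-pore channels KCNK5 (22.6 TPM) and KCNK6 (19.9 TPM). The order of neighbours is not firm: KCNAB2 ranged from 36.0 to 40.4 TPM, KCNE3 from 28.0 to 47.5 TPM and KCNS3 from 34.2 to 44.1 TPM. Of the summed TPM, auxiliary subunits held 36.8%, voltage-gated pores 21.3%, two-pore channels 17.0%, modifiers 16.3%, inward rectifiers 5.47% and Slo and SK pores 3.14%.

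**Figure D1:**
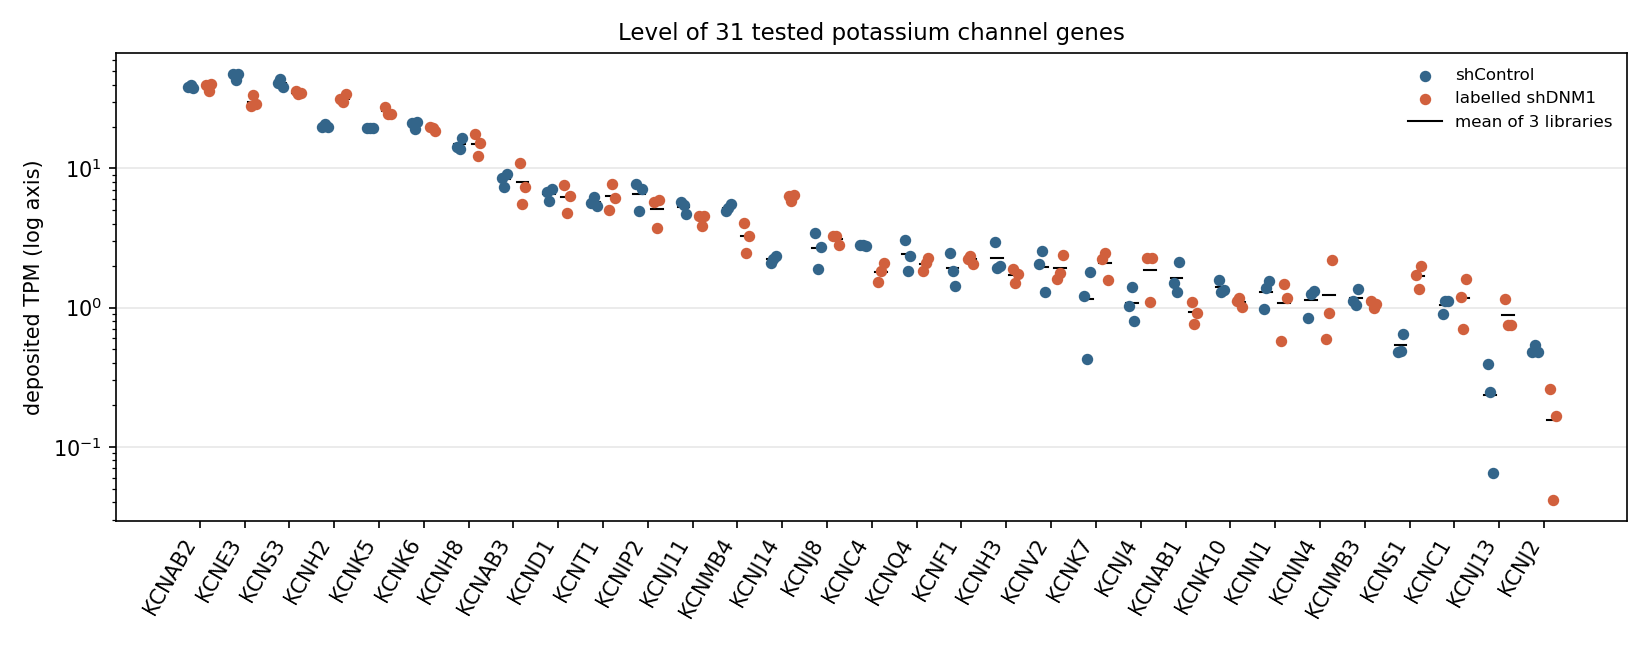
Deposited TPM (log axis) of 31 of the 33 tested potassium channel genes in each of the 6 libraries, ordered by mean level, with shControl in blue, labelled shDNM1 in orange and a bar at the mean of 3 libraries. The first 7 genes in this order lie above 10 TPM in every library, and KCNJ2, the last shown, has a mean of 0.327 TPM.

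An accessory subunit can stand far above the pore it is known to join. KCNMB4, a beta subunit of the large-conductance calcium-activated channel, was at 4.25 TPM, while that pore's gene KCNMA1 had 6 counts in all. For the ATP-sensitive channel, the pores KCNJ11 (4.81 TPM) and KCNJ8 (2.90 TPM) were found with the sulfonylurea receptor gene ABCC9 (2.03 TPM), and ABCC8 had 24 counts. These pairings were picked after the values were seen.

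Between the sets, 5 potassium channel genes rose and 5 fell in the libraries labelled shDNM1, and 23 of the 33 tested did not pass the edgeR quasi-likelihood test (adjusted p under 0.05). The 10 called genes are 30.3% of the tested members, close to the 31.9% called among all 16744 genes tested, of which 15.6% rose and 16.2% fell. A further gene, KCNAB1, named after its values were seen, had an unadjusted p under 0.05 but did not pass (log2 fold change -0.76, adjusted p = 0.0729). For 14 members (42.4%) no library of one set lay within the range of the other, against 44.3% of all genes. The median log2 fold change was -0.02 over the tested members and -0.01 over all genes, and the median absolute log2 fold change 0.29 and 0.24. Of the called members 7 differed at least 1.5-fold, 21.2% of those tested, against 11.7% of all genes. The members were less abundant (median average log2 CPM 1.72 against 4.24), and the part of abundance in that share was not tested. KCNJ13 and KCNJ2, both counted in that share, reached the low-count filter only through the set where they were higher. The called genes came from 5 of the 6 role classes and lie on 9 chromosomes. Without shControl replicate 3 or without shDNM1 replicate 2 the genes that fell numbered 3 rather than 5.

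**Figure D2:**
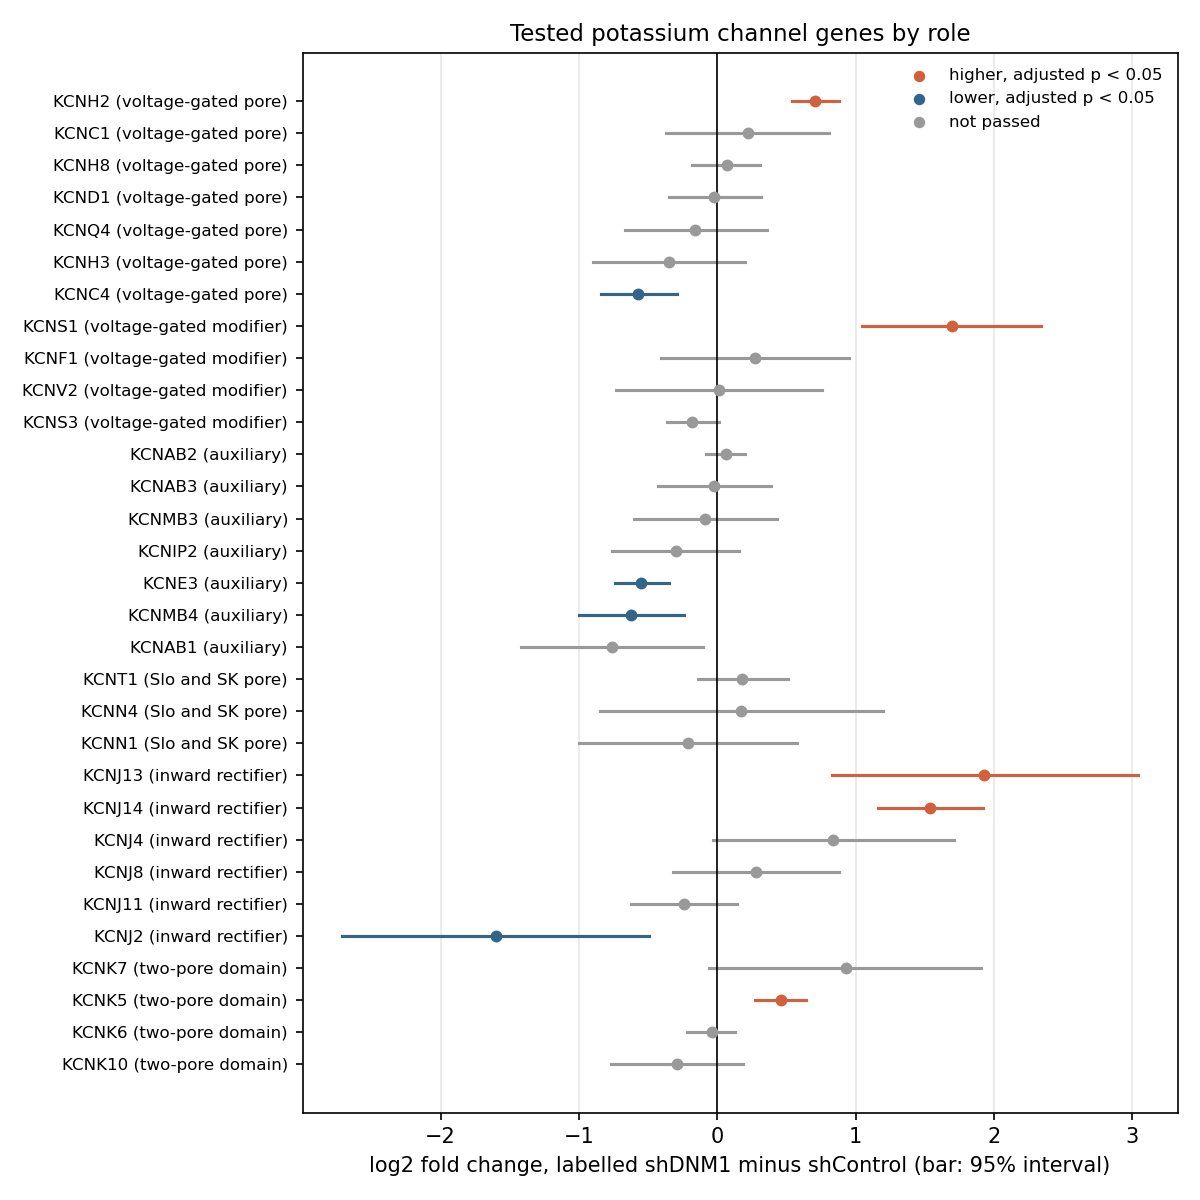
Log2 fold change (labelled shDNM1 minus shControl) of 31 of the 33 tested genes with its 95% interval, grouped by role, with called genes in colour and genes that did not pass in grey. Rises and falls both occur among voltage-gated pores and inward rectifiers, and both called auxiliary subunits fell.

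Among the voltage-gated pores, KCNH2 rose and KCNC4 fell. KCNH2 (chromosome 7, 150944961 to 150978321, minus strand) was 30.4, 32.5 and 30.8 CPM in shControl and 49.2, 49.7 and 54.3 CPM in the labelled shDNM1 libraries. The sets lay well apart, and KCNH2 was 1.64 times its shControl level (log2 fold change 0.71, SE 0.080, adjusted p = 2.4e-06). KCNC4 (chromosome 1, 110210314 to 110283100, plus strand), a pore of fast repolarisation, was 17.0, 17.6 and 17.0 CPM in shControl and 9.55, 12.2 and 13.2 CPM in the labelled shDNM1 libraries. All 3 labelled shDNM1 libraries were lower, replicate 1 most (log2 fold change -0.57, SE 0.13, adjusted p = 0.00289). On the log2(TPM + 1) and log2(TPM + 0.1) scales with limma the KCNC4 call was lost (adjusted p = 0.0509 and 0.0678). KCNC1, of the same subfamily as KCNC4, did not pass and had a log2 fold change of 0.22 with an interval of -0.37 to 0.81. KCNH8, the most abundant voltage-gated pore that did not pass, was 24.9 ± 2.58 and 26.0 ± 3.95 CPM (SD, n = 3), an interval of -0.18 to 0.31.

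Of the modifiers, KCNS1 rose. KCNS1 (chromosome 20, 45091214 to 45101127, minus strand) was 0.843, 0.884 and 1.16 CPM in shControl and 3.11, 2.63 and 3.65 CPM in the labelled shDNM1 libraries. Its lowest labelled shDNM1 library was above every shControl library, and the level was 3.24 times that of shControl (log2 fold change 1.70, SE 0.31, adjusted p = 0.000362). KCNS3, its abundant relative, was 32.0, 35.1 and 30.1 CPM against 29.0, 29.0 and 28.1 CPM. These sets did not overlap either, but the difference did not pass (log2 fold change -0.18, interval -0.36 to 0.01, adjusted p = 0.145), except on either log2 TPM scale (adjusted p = 0.0474 on each).

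The auxiliary subunits KCNE3 and KCNMB4 fell, and their class's summed level was 104 to 112 TPM in shControl and 84.0 to 92.1 TPM in the labelled shDNM1 libraries. The mean of that sum went from 110 to 88.4 TPM, and that of KCNE3 alone from 46.1 to 30.2 TPM. Summed levels overlapped between the sets for voltage-gated pores (50.5 to 55.3 and 54.3 to 65.3 TPM) and modifiers (42.0 to 49.2 and 41.4 to 42.6 TPM). Those of Slo and SK pores overlapped too (7.53 to 9.03 and 6.24 to 10.1 TPM). KCNE3 (chromosome 11, 74454841 to 74467729, minus strand), which keeps its partner pore open in crypt cells, was 47.1, 44.2 and 47.8 CPM in shControl. In the labelled shDNM1 libraries it was 28.7, 36.3 and 30.1 CPM, all below shControl, and so at 0.684 of the shControl level (log2 fold change -0.55, SE 0.093, adjusted p = 0.000172). By TPM KCNE3 was the most abundant potassium channel gene in shControl (46.1 TPM) and not in the labelled shDNM1 libraries (30.2 TPM). KCNMB4 (chromosome 12, 70366290 to 70434292, plus strand) was 7.59, 8.10 and 8.56 CPM against 6.37, 4.15 and 5.25 CPM. The sets did not overlap (log2 fold change -0.62, SE 0.18, adjusted p = 0.0131), but the KCNMB4 call was lost without shControl replicate 3 or shDNM1 replicate 2 (adjusted p = 0.0568 and 0.0532). The beta subunit KCNAB2 was 75.8 ± 2.85 and 79.1 ± 2.71 CPM (SD, n = 3), with an interval of the log2 fold change of -0.08 to 0.20, and KCNAB3 was 7.89 ± 0.785 and 7.76 ± 2.47 CPM.

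Inward rectifiers held both the largest rise, KCNJ13, and the largest fall, KCNJ2, of the tested members by point estimate. KCNJ13 reached the low-count filter only through the labelled shDNM1 libraries, and KCNJ2 only through shControl. At so few counts the filter favours genes that differ between the sets. The size of these changes and their calls therefore cannot be separated from how the genes entered the test. KCNJ13 (chromosome 2, 232765802 to 232776565, minus strand), a weak rectifier of transporting epithelia, had 6, 4 and 1 counts in shControl and 18, 12 and 12 counts in the labelled shDNM1 libraries. The sets did not overlap and the log2 fold change was 1.93, but these few counts leave an interval of 0.83 to 3.04 (adjusted p = 0.0086). The KCNJ13 call was lost without shControl replicate 3 (adjusted p = 0.0667). KCNJ14 (chromosome 19, 48455574 to 48466980, plus strand), a strong rectifier, rose with a narrower interval, 1.16 to 1.92. That interval covers the spread between libraries and not any reads shared with a neighbouring gene, described below. KCNJ14 was 2.68, 2.95 and 3.08 CPM in shControl and 8.47, 8.29 and 8.67 CPM in the labelled shDNM1 libraries. The 3 libraries of each set lay close together and the level was 2.91 times that of shControl (log2 fold change 1.54, SE 0.18, adjusted p = 3.53e-06). KCNJ2 (chromosome 17, 70168673 to 70180044, plus strand), which carries the classical inward rectifier current of heart muscle, fell from 11, 13 and 11 counts to 6, 1 and 4 counts. Its log2 fold change was -1.60 (interval -2.71 to -0.49, adjusted p = 0.0273). The KCNJ2 call was lost without shControl replicate 1, 2 or 3 (adjusted p = 0.0736, 0.0871 and 0.0737), without shDNM1 replicate 2 or 3 (adjusted p = 0.116 and 0.0765), with DESeq2 (adjusted p = 0.0895) and on the log2(TPM + 1) scale (adjusted p = 0.0552). The log2 fold changes of KCNJ4, KCNJ8 and KCNJ11, which did not pass, were 0.84, 0.28 and -0.24. The summed level of the class was 11.7 to 13.8 TPM in shControl and 15.2 to 18.2 TPM in the labelled shDNM1 libraries. The mean of that sum went from 12.5 to 16.9 TPM, and that of KCNJ14 alone from 2.22 to 6.22 TPM.

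KCNJ13 and KCNJ14 share transcribed sequence with abundant neighbours, and the use of strand in counting is not given in the sources used here. In GENCODE release 29 (GRCh38), 350 exonic bases of KCNJ14 (8.06%) lie in exons of GRWD1 on the same strand. GRWD1 had 7103 counts against 442 for KCNJ14 and was 1.36-fold higher (adjusted p = 7.2e-05). Of the exonic bases of KCNJ13, 24.3% overlap exons of GIGYF2 on the opposite strand, which had 9538 counts against 53 and was 1.14-fold higher (adjusted p = 0.0271), a call of GIGYF2 that was lost under 7 of 15 alternatives (adjusted p from 0.00864 to 0.17 over all of them). The part of shared reads in both rises was not tested.

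Of the two-pore channels, KCNK5 rose. KCNK5 (chromosome 6, 39188971 to 39229475, minus strand), an acid-sensitive leak channel of epithelia, was 23.8, 24.5 and 24.2 CPM in shControl and 34.9, 33.0 and 31.7 CPM in the labelled shDNM1 libraries. The sets lay apart and KCNK5 was at 1.37 times its shControl level (log2 fold change 0.46, SE 0.088, adjusted p = 0.000592). KCNK6, of similar TPM, was 38.7 ± 1.92 and 37.5 ± 1.79 CPM (SD, n = 3), an interval of the log2 fold change of -0.22 to 0.13. The summed level of the class was 40.8 to 44.6 TPM in shControl and 46.0 to 51.4 TPM in the labelled shDNM1 libraries. The mean of that sum went from 43.1 to 48.6 TPM, and that of KCNK5 alone from 19.5 to 25.7 TPM.

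No Slo or SK pore passed among the 3 tested, by edgeR or by any other setting run, and 0 had an unadjusted p under 0.05. The sodium-activated channel KCNT1 was 13.5 ± 1.19 and 15.4 ± 3.74 CPM (SD, n = 3), and the calcium-activated KCNN4, known for its part in intestinal secretion, had 7, 11 and 11 counts in shControl and 5, 8 and 19 in the labelled shDNM1 libraries. At that depth the interval for KCNN4 runs from -0.85 to 1.20 on the log2 scale.

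**Figure D3:**
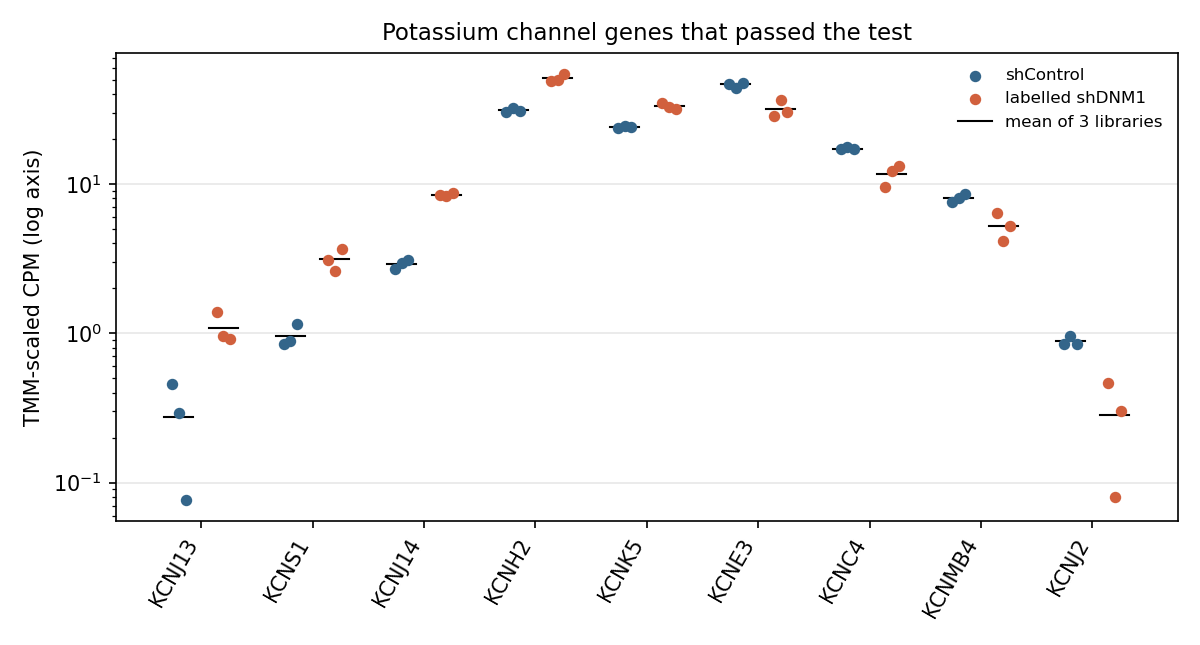
TMM-scaled CPM (log axis) of 9 of the 10 called potassium channel genes in each library, shControl in blue and labelled shDNM1 in orange, with a bar at the mean of 3 libraries, ordered from the largest rise to the largest fall. For each gene the 3 points of one set lie wholly above those of the other. KCNJ13 and KCNJ2, at the ends, lie near or below 1 CPM.

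The stretches before the annotated starts of the called genes were then read for motifs. RefSeq windows (build GRCh38.p14, 250 bases before the start) matched 71 of the 94 genes and 7 of the 10 called. The 3 printed here run 5′ to 3′ on the gene's strand and show how unlike they are: 1 from a gene with few CpG dinucleotides that rose, and 1 CpG-rich window each from a gene that rose and a gene that fell. Capitals mark GGGCGG or its reverse complement CCGCCC (the GC box), and TATAAA or its reverse complement TTTATA. The KCNJ13 stretch (chr2:232776569-232776751, minus strand) is shorter because bases annotated as UTR were left out. The other stretches are chr6:39229476-39229725 (minus strand) for KCNK5 and chr1:110210064-110210313 (plus strand) for KCNC4.
KCNJ13: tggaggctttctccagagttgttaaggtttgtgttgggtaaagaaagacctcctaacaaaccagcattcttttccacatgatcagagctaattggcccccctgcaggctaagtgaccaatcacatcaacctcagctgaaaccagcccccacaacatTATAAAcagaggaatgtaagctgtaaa
KCNK5: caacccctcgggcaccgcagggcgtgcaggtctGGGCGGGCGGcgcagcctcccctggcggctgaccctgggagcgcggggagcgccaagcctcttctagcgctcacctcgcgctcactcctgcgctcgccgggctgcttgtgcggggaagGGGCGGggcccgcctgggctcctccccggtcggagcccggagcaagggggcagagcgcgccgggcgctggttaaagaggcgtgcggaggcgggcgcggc
KCNC4: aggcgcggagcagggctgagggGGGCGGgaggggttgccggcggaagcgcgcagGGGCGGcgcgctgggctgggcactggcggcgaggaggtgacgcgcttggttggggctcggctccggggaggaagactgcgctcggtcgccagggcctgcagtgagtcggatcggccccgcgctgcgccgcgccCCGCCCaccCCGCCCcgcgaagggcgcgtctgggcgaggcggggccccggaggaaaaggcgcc

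In these printed stretches KCNJ13 had 0 CpG dinucleotides and a TATAAA that begins 30 bases before the start, KCNK5 had 31 CpG and 3 GC boxes, and KCNC4 had 36 CpG and 4 GC boxes, overlapping matches counted apart. Over whole windows, a GC box stood in 3 of 4 matched genes that rose (KCNH2, KCNJ14 and KCNK5, not KCNJ13) and in 3 of 3 that fell (KCNC4, KCNE3 and KCNJ2). It stood in 56.3% of the matched potassium channel genes and in 42.3% of all 27305 windows. TATAAA stood in the windows of KCNJ13 and KCNJ14, the latter a gene that overlaps GRWD1 on the same strand. This motif stood in none of the 18 matched genes that were tested and did not pass, and in 8.45% of the matched members and 11.1% of all windows. CACGTG and TGANTCA, also searched on both strands, were in none of the 7 windows, against 6.49% and 6.6% of all. The median number of CpG dinucleotides was 15 in tested and also in untested members, and 11 in all windows. These matches are descriptions of letters, and the windows need not be the starts used in SW620.

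Genes that work beside potassium channels in ion transport were read from a list of 43, of which 24 were tested. In it 8 rose, 6 fell and 10 did not pass, so 58.3% were called, against 31.9% of all genes, a difference that was not tested. The list was chosen with earlier results of these data known, so the share called may reflect that choice. Their median log2 fold change was 0.13. The sodium pump, which builds the potassium gradient, had 2 beta subunit genes that rose, ATP1B1 from 36.0 ± 0.558 to 51.1 ± 2.16 CPM and ATP1B3 from 121 ± 2.87 to 143 ± 5.80 CPM (SD, n = 3). Their adjusted p were 5.97e-05 and 0.00741, and that of ATP1B3 was 0.0558 without shControl replicate 3. The third beta subunit gene, ATP1B2, fell from 12, 12 and 13 counts to 5, 1 and 3 counts (adjusted p = 0.00865). The pump regulators FXYD5 and FXYD4 rose 1.56-fold and 4.88-fold, the latter from 7, 6 and 1 counts to 21, 23 and 24 counts. FXYD4 reached the low-count filter only through the labelled shDNM1 libraries, and ATP1B2 only through shControl. The size of both changes and their calls therefore cannot be separated from how these genes entered the test.

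SLC12A2, whose product brings sodium, potassium and chloride into the cell, showed the smallest p of the list. It was 236, 210 and 237 CPM in shControl and 93.5, 96.5 and 93.1 CPM in the labelled shDNM1 libraries, so every labelled shDNM1 library held less than any shControl library (log2 fold change -1.27, SE 0.066, adjusted p = 2.82e-10). Of the cotransporters that take potassium and chloride out, SLC12A4 rose 1.31-fold (adjusted p = 0.000127), while SLC12A7 fell to 0.871 of its shControl level (adjusted p = 0.0178). The SLC12A7 call was lost without shControl replicate 1 or 2 (adjusted p = 0.0988 and 0.0561). HCN3, a pacemaker-type channel, fell from 23.3 ± 0.545 to 9.19 ± 2.71 CPM (SD, n = 3; adjusted p = 4.45e-06). HCN2, of the same family and named after its values were seen, went the other way, from 3.01 ± 0.312 to 4.59 ± 0.580 CPM (SD, n = 3; log2 fold change 0.61, adjusted p = 0.0402). The HCN2 call was lost under 10 of 15 alternatives, with adjusted p from 0.0232 to 0.137 over all of them. TMEM175, a lysosomal potassium channel outside the KCN names, fell from 13.7 ± 0.367 to 9.80 ± 1.16 CPM (adjusted p = 0.00984), and the calmodulin gene CALM2 rose 1.19-fold (adjusted p = 0.0025).

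**Figure D4:**
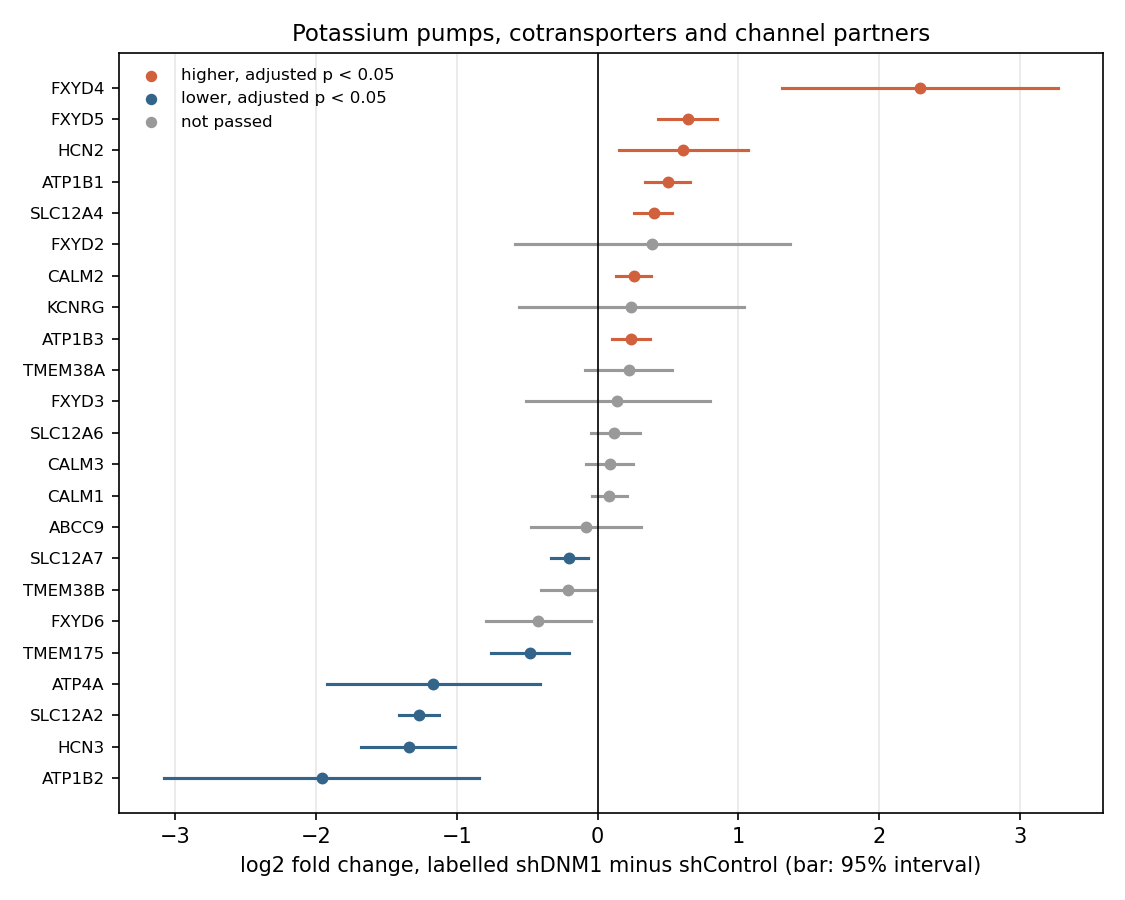
Log2 fold change (labelled shDNM1 minus shControl) with its 95% interval for 23 of the 24 tested pump, cotransporter and channel partner genes, called genes in colour and others in grey. SLC12A2 and HCN3 lie below -1 with narrow intervals, whereas ATP1B2 and FXYD4, with few counts, have wide ones.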

How the data were processed

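The authors deposited raw read counts per gene as whole numbers, on GRCh38 per the submitters' processing notes. For the aligner, counter, annotation release and use of strand, the entry is: not given in the sources used here. Identical repeated lines were collapsed (62710 lines, 60835 names). The authors' TPM values were handled as a score, since its columns sum to 1000000 only over unique names, and it served for levels between genes. No per-sample column was left unused (0). Low counts were removed with filterByExpr, libraries were scaled by TMM, and the sets were tested against each other by the quasi-likelihood F test (two-sided) of edgeR 4.0.16 (R 4.3.3), with Benjamini-Hochberg adjustment over 16744 genes. CPM values use the same scaling, and intervals are 95%. Fold changes of genes with few counts depend slightly on the prior count. The procedure was tested on simulated data drawn from the means and dispersions of these libraries. Those data had independent libraries and no batch, so they cannot show how batch or technical replication affects the calls. Alternatives used DESeq2 1.42.0, limma 3.58.1, other scalings and filters, a replicate block and each library left out. Library pairs were checked: no pair agreed within sampling noise (chi-square per gene of 2.39 or more). Coordinates are those of the deposited table. Tables and figures used Python 3.11.15, pandas 2.3.3, numpy 2.4.6 and matplotlib 3.10.9. The members, gene lists and naming rule were chosen with earlier results of these data known. The rule named every called member, the 5 most abundant members that did not pass, the 3 untested members with most counts, and up to 12 called partners by p; genes named beyond it were chosen after their values were seen. Some genes enter the counts and summed levels, but their own values are not reported here or drawn in the figures.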

Additional observations from a re-analysis of the deposited data

How the results depend on the processing

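Over 15 alternatives, 6 of the 10 called potassium channel genes kept their call under every one (among them KCNE3, KCNJ14, KCNK5, KCNS1 and KCNH2), and none of the 10 changed sign. KCNJ13 and KCNJ2 had too few counts to be tested when a CPM of at least 1 was required in 3 libraries. The number of potassium channel genes that rose was 4 or 5 when 1 library was left out, and the number that fell 3 to 5, with 3 without shControl replicate 3 and 3 without shDNM1 replicate 2. Without shDNM1 replicate 1 the same 10 genes were called, and the calls over all genes rose to 2939 higher and 2951 lower. The sign of 10 of the 33 tested members turned under at least 1 alternative; none of these was called, and their log2 fold changes were at most 0.22 in size. Those with values in the text were KCNH8, KCNAB3, KCNC1, KCNT1 and KCNN4. With 1 library left out the log2 fold change of KCNH8 ran from -0.04 to 0.17, below 0 without shDNM1 replicate 1, and that of KCNAB3 from -0.30 to 0.16, above 0 (0.04, 0.16 and 0.04) without shControl replicate 3, shDNM1 replicate 2 and shDNM1 replicate 3. In the same way KCNC1 ran from -0.07 to 0.46 and KCNN4 from -0.51 to 0.51, both below 0 without shDNM1 replicate 3, and KCNT1 from -0.01 to 0.34, below 0 without shDNM1 replicate 2. On the log2(TPM + 0.1) scale KCNN4 was at -0.05. Over all genes, 49.0% of the 5337 calls were rises, against 38.8% with log2(TPM + 1) and limma (1801 higher, 2846 lower); the cause was not tested. Replicate numbers are shared between the sets, but no label pairs them. Deviations of same-numbered libraries correlated at 0.102, 0.0634 and -0.033, so the numbers were not taken as pairs, although a block on the replicate number left 5 genes higher and 5 lower, the same 10 genes, and raised the calls over all genes to 2964 higher and 3116 lower. For genes under about 1 CPM, such as KCNJ13 and KCNJ2, depth limits the precision.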
